A study of Arabidopsis thaliana with 116 samples.

Results

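Roots of Arabidopsis seedlings that had been on salicylic acid (SA) for 2 h were compared with roots of seedlings kept on hormone-free medium for the same time. Each side had 3 RNA-seq libraries, so 6 of the 58 root libraries of the series were compared here, over all genes in the table. All plants were wild type, strain Col-0, 5 days old at transfer, with no transgene or mutant allele in any group. The SA seedlings were carried on their mesh to agar with 150 µM SA, and the control seedlings to the standard medium, so that both went through the same transfer. The other groups used below for comparison were SA and control roots at 1 h and at 4 h, SA and control shoots at 2 h, and roots on 2 µM abscisic acid (ABA) for 2 h, with 3 libraries each. Each library came from many seedlings pooled in rows, and root was parted from shoot by a razor cut, so all root cell types were mixed.

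SA is a phenolic hormone best known from defence of leaves against pathogens that feed on living cells. It is bound by NPR proteins: with SA, NPR1 works as a coactivator with TGA transcription factors at promoters that hold the bases TGACG, while NPR3 and NPR4 act there as repressors whose action SA relieves. Plants keep SA in check by hydroxylating it and by linking it to glucose. In roots, SA applied from outside is also known to slow growth and to interfere with auxin.

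Total counts were 53628734, 9681595 and 27242935 in SA replicates 1, 2 and 3, and 96952547, 66093572 and 15251399 in control replicates 1, 2 and 3. Levels are given as CPM, counts scaled to library size with TMM factors, in the order of the replicate numbers. Within a group the log2 CPM of all genes correlated at 0.994 to 0.997. Between the groups the correlation was 0.950 to 0.954 for SA replicate 1 and 0.938 to 0.943 for the other SA replicates, so SA replicate 1 stood somewhat nearer to the controls. All 6 libraries carried library names of the same prefix. The 12 photosynthesis genes used as markers of shoot tissue summed to 39.1, 29.2 and 30.5 CPM in the SA libraries and to 56.6, 53.3 and 30.3 CPM in the control libraries, and 1 of the 12 was called between the groups, PSAD1, at a log2 fold change of -2.96 (6 were called lower when only the 6 libraries compared were fitted). The 12 root markers summed to 2774, 2363 and 2178 CPM in the SA libraries, against 4357, 4624 and 4616 CPM in the control libraries. Most of that sum was BGLU23 (AT3G09260), a beta-glucosidase abundant in roots, which had 2284, 1905 and 1746 CPM in the SA libraries, against 3698, 3889.6 and 3997 CPM in the control libraries.

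Most expressed genes differed between SA and control roots after 2 h, mostly by small amounts. Of 21367 genes tested with edgeR's quasi-likelihood test, 13141 (61.5%) were called at a Benjamini-Hochberg adjusted p under 0.05. Of these, 6285 (29.4% of the genes tested) were higher with SA and 6856 (32.1%) were lower. The median absolute log2 fold change of the called genes was 0.626, and 71.0% of them changed by less than 2-fold. At least 2-fold higher were 1861 genes (8.71%), and at least 2-fold lower were 1955 (9.15%). The large changes leaned to the higher side: 676 called genes were at least 4-fold higher and 524 at least 4-fold lower, and 304 were at least 8-fold higher against 162 at least 8-fold lower. The SA and control libraries did not overlap at 14132 genes (66.1%). With so many genes called, a list of genes is read below against these shares.

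Whether reads were counted by strand is not given in the sources used here. Reads of a gene that overlaps another on the opposite strand may therefore be mixed, and the values of the following named genes are uncertain for that reason: NPR1, TGA4, TGA6, SARD1, UGT74F1, UGT74F2, UGT75B1, WRKY40, WRKY53, UGT73C6, CRK10, EFR, FLS2, ATAF2, UGT73B1, GSTF11, JAZ12, MYC2, IAA13, ARR6, ARR8, ARR9, RAB18, EXPA7, GL2, CASP1, BGLU23, SIM, GATL6, ORP3B, AT5G10210, AT2G36090 and AT5G55050. Other genes have a near copy elsewhere with at least 100 bases at 90% identity, so that reads may have been split or lost: PCC1, UGT73C6, scpl14, WRKY40, NDR1, EFR, BIP1 and BIP2, ARR8, GL2, NRT2.1, PHT1;1, PRR9 and UBQ3.

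**Figure D1:**
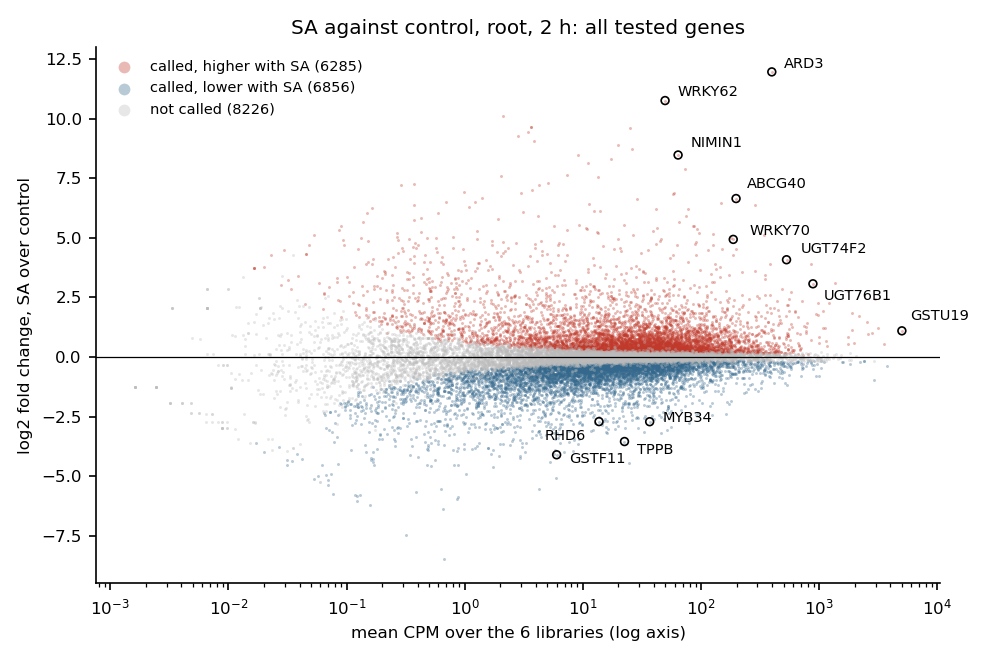
Log2 fold change of SA over control against mean CPM over the 6 libraries (log axis) for the tested genes, with called genes higher with SA in red, called genes lower with SA in blue and genes not called in grey. Circled genes are described in the text, and the points reach farther above 0 than below it among genes of more than 10 CPM.

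Most genes for SA receptors and their partners were higher, and those of the TGA factors split. Of the 14 NPR, NIMIN and TGA genes, 9 were called higher, 5 of them by at least 2-fold, and 2 were called lower, with a median log2 fold change of 0.49 against -0.031 over all genes tested. NIMIN1 (AT1G02450), which encodes a small protein that binds NPR1 and restrains it, had 128, 134 and 121 CPM in the SA libraries, against 0.387, 0.307 and 0.376 CPM in the control libraries. That was a 354-fold rise (log2 fold change 8.47 ± 0.23 SE, edgeR adjusted p = 2.24e-32, n = 3 each). NIMIN2 (AT3G25882), a relative that also binds NPR1, averaged 89.4 ± 9.29 CPM with SA and 3.03 ± 0.479 CPM in controls (SD, n = 3 each). The groups stood far apart at both genes.

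Of the receptors, NPR3 (AT5G45110) responded most. It had 659, 617 and 629.9 CPM in the SA libraries, against 60, 59.6 and 55.6 CPM in the control libraries, a log2 fold change of 3.44 ± 0.11 (edgeR adjusted p = 7.35e-30). NPR4 (AT4G19660) rose by less, to 133 ± 4.13 CPM with SA and 52.2 ± 1.77 CPM in controls. NPR1 (AT1G64280) had 46.3, 41.6 and 45 CPM in the SA libraries, against 28.9, 29.7 and 24.2 CPM in the control libraries, a log2 fold change of 0.68. The groups did not overlap at any of the 3 receptor genes.

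The TGA factors, which bring NPR proteins to DNA, split by gene. TGA7 (AT1G77920) rose to 133 ± 9.48 CPM with SA and 56.2 ± 4.58 CPM in controls. TGA1 (AT5G65210) had 122, 123 and 129.9 CPM in the SA libraries, against 264, 265 and 283 CPM in the control libraries, and its relative TGA4 (AT5G10030) fell as well, by 0.89 on the log2 scale. TGA2 and TGA6 were not called, at log2 fold changes of -0.03 and -0.10, and TGA3 and TGA5 rose slightly, by 0.17 and 0.30. The call of TGA3 was lost with no filter (adjusted p = 0.0578), with only the 6 libraries fitted (0.0594), and without SA replicate 3 or control replicate 2.

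**Figure D2:**
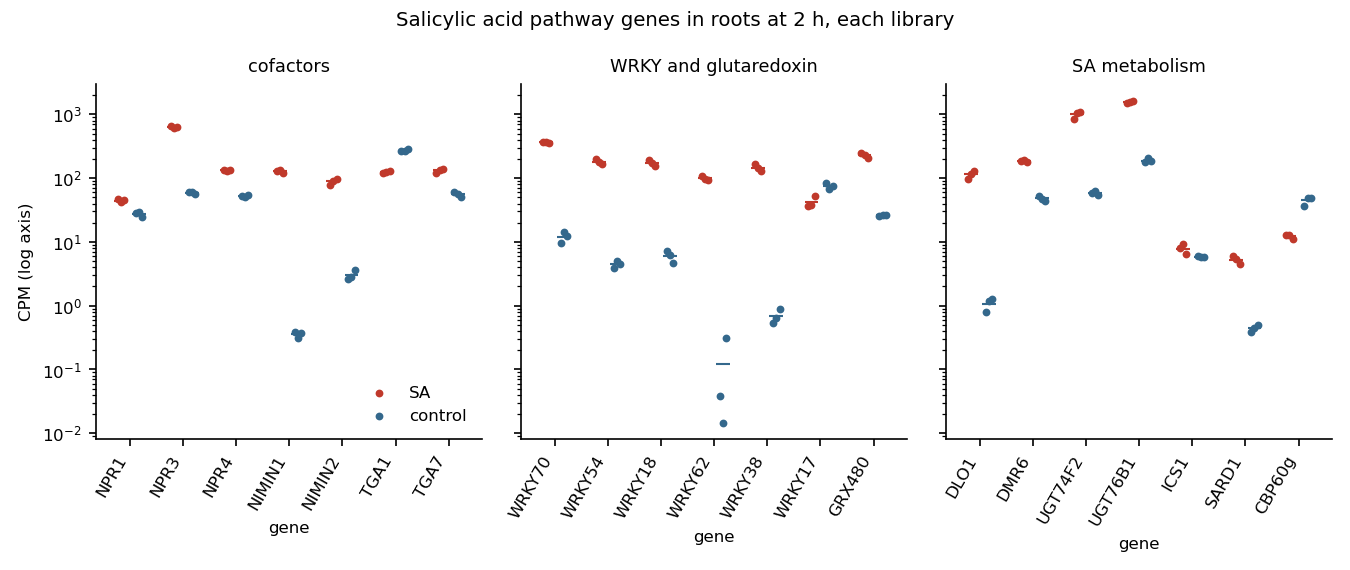
CPM (log axis) of receptor and cofactor genes, of WRKY and glutaredoxin genes and of SA metabolism genes in each root library at 2 h, with SA libraries in red to the left of control libraries in blue and a line at each mean. NIMIN1, WRKY62, WRKY38 and DLO1 have the widest gaps, with SA above, while TGA1, WRKY17 and CBP60g lie lower with SA.

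The genes that make SA were mostly lower or little changed, whereas several that inactivate it were strongly higher. Among 12 genes of SA synthesis and its control, 2 were called higher and 7 lower, with a median of -0.42. ICS1 (AT1G74710), the isochorismate synthase that makes most pathogen-induced SA in leaves, had 8.0, 9.19 and 6.45 CPM in the SA libraries, against 5.97, 5.78 and 5.76 CPM in the control libraries, a small rise (log2 fold change 0.40 ± 0.16 SE, edgeR adjusted p = 0.0263). Its call was lost without SA replicate 1, SA replicate 2 or control replicate 2, at adjusted p of 0.0866, 0.1 and 0.0551. PBS3, which acts after ICS1, was not called, at a log2 fold change of 0.52 ± 0.38 (SE), but was called when only the 6 libraries were fitted (0.53, adjusted p = 0.0176). The phenylalanine ammonia-lyase genes PAL2 and PAL4, of the other route to SA, fell by 0.47 and 0.34 on the log2 scale, PAL4 without a call when SA replicate 3 or control replicate 2 was left out (adjusted p = 0.0711 and 0.116). The number called lower was 4 without SA replicate 3. The 2 closely related activators of ICS1 went opposite ways. SARD1 (AT1G73805) had 5.96, 5.43 and 4.5 CPM in the SA libraries, against 0.387, 0.453 and 0.501 CPM in the control libraries, and CBP60g (AT5G26920) had 13, 13.1 and 11 CPM in the SA libraries, against 36.7, 49 and 48.4 CPM in the control libraries. Their log2 fold changes were 3.64 ± 0.25 and -1.85 ± 0.37 (SE), and the groups did not overlap at either gene.

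Of 13 tested genes that modify SA or act on its methyl ester, 5 were called higher, each by at least 2-fold, and 4 were called lower. DLO1 (AT4G10500), an oxygenase that hydroxylates SA, had 98.1, 117 and 131 CPM in the SA libraries, against 0.803, 1.17 and 1.25 CPM in the control libraries. It rose 115-fold (log2 fold change 6.85 ± 0.25 SE, edgeR adjusted p = 6.72e-27). DMR6 (AT5G24530), its relative, was already present in controls and averaged 184 ± 6.22 CPM with SA and 48 ± 4.38 CPM in controls (SD, n = 3 each). UGT74F2 (AT2G43820), which links SA to glucose as an ester, had 856, 1058 and 1085 CPM in the SA libraries, against 59.3, 63.2 and 54.8 CPM in the control libraries. UGT76B1 (AT3G11340), a glucosyltransferase that acts on SA and on N-hydroxypipecolic acid, had 1529.9, 1574 and 1644 CPM in the SA libraries, against 177, 205 and 184 CPM in the control libraries. The highest control value lay below the lowest SA value at each of the 4 genes. The fifth was UGT75B1, at a log2 fold change of 2.44. The called genes that were lower were UGT74F1 and the methylesterases MES1, MES2 and MES9, of which MES9 alone passed 2-fold (log2 fold change -1.27). Without control replicate 2 the calls of UGT74F1 and MES1 were lost, which left 2 called lower; that of UGT74F1 was also lost without SA replicate 1 and with only the 6 libraries fitted (adjusted p = 0.0747), and that of MES1 without SA replicate 3.

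WRKY transcription factors, the family that binds W boxes (TTGACC or TTGACT), included several of the largest changes. Of 35 tested WRKY genes on the list, 24 were called higher, 17 of them by at least 2-fold, and 8 were called lower, 2 of them by at least 2-fold; the median was 0.91. WRKY70 (AT3G56400), which promotes SA-dependent defence, had 362, 364 and 362 CPM in the SA libraries, against 9.51, 14.2 and 12.3 CPM in the control libraries. Its closest relative, WRKY54 (AT2G40750), averaged 182 ± 18.1 CPM with SA and 4.46 ± 0.523 CPM in controls (SD, n = 3 each). The SA libraries lay close together at WRKY70, and at both genes every SA library was above every control.

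The relatives WRKY62 (AT5G01900) and WRKY38 (AT5G22570), which act downstream of NPR1, were almost silent in controls. WRKY62 had 5493, 863 and 2338 counts in the SA libraries and 4, 1 and 5 counts in the control libraries. WRKY38 averaged 146 ± 17.8 CPM with SA and 0.687 ± 0.172 CPM in controls, and WRKY59 (AT2G21900) averaged 52 ± 12.3 CPM with SA and 0.142 ± 0.0576 CPM in controls. WRKY66 had 275, 53 and 259 counts with SA and 0, 1 and 0 counts in controls, which made it at least 82.9-fold higher with SA, taking 3 counts per control library as the floor. WRKY18 and WRKY40, which form dimers with each other, rose 27-fold and 27.9-fold, while WRKY60, the third member of that trio, fell by 0.82 on the log2 scale. WRKY53 and WRKY28 were lower at 2 h, at log2 fold changes of -1.14 and -1.26.

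Ranked by size among called genes of at least 5 CPM whose groups did not overlap, the gene with the largest rise was ARD3 (AT2G26400), annotated as an acireductone dioxygenase of the methionine salvage cycle. It had 670.4, 803 and 909.5 CPM in the SA libraries, against 0.203, 0.219 and 0.0627 CPM in the control libraries. The control values stood for 21, 15 and 1 counts. The 12 largest rises also took in WRKY62, scpl14 (AT3G12230, a serine carboxypeptidase-like protein), CPK22 (AT4G04710, a calcium-dependent kinase-like protein), WRKY59, AT4G16820 (an alpha/beta-hydrolase), NIMIN1, PCC1 (AT3G22231, known as pathogen and circadian controlled), UGT73C6, WRKY38, TBL42 (AT1G78710) and AT5G55150 (an F-box protein). Their log2 fold changes ran from 7.56 for AT5G55150 to 11.96 for ARD3. None of the 12 had more than 56 counts in any control library, so their fold changes rest on few control counts. PCC1, for example, had 1438, 334 and 958 counts with SA and 19, 1 and 0 counts in controls, and its log2 fold change of 8.29 became 11.09 without control replicate 1. That of CPK22 was 8.88 and became 9.53 without control replicate 2, and that of WRKY62 was 10.75 and became 11.58 without control replicate 3.

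The 250 bases upstream of the annotated start of some of these genes are shown because TGACG, the element of TGA factors, recurs in them. They were read from RefSeq's TAIR10.1 genome, the part 5′ of the gene on the gene's own strand, with TGACG on either strand in capitals (CGTCA is TGACG on the other strand, and TGACGTCA holds the motif once on each strand). The ARD3 stretch is chr2:11233389-11233638 on the reverse strand and holds 4 motifs, that of PCC1 is chr3:7846834-7847083 on the reverse strand with 3, that of DLO1 is chr4:6490767-6491016 on the forward strand with 2, and that of WRKY70 is chr3:20910624-20910873 on the reverse strand with 2.
ARD3: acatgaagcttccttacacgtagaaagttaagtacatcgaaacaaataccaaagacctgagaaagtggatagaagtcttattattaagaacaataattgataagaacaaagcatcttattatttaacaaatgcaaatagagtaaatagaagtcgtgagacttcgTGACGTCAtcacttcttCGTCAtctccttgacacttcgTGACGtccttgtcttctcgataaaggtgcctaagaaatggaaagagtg
PCC1: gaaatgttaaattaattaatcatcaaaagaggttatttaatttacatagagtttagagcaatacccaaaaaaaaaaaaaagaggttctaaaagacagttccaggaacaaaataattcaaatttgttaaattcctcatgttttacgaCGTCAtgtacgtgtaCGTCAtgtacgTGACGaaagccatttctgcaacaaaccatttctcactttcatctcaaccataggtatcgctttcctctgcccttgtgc
DLO1: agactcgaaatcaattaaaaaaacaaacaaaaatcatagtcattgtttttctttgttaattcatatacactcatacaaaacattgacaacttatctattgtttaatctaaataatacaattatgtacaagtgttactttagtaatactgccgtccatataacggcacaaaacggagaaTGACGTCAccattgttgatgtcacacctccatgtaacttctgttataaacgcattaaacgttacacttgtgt
WRKY70: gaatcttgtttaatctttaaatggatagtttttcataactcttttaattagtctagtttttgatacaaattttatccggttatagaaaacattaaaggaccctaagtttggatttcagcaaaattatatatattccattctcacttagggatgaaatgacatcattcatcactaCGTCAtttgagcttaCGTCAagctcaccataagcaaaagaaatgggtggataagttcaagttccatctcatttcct

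These 4 were chosen for holding at least 2 motifs among 18 of the named genes searched, and are no sample of the others. NIMIN1, UGT74F2, UGT76B1, WRKY38, WRKY59, WRKY62, scpl14, CPK22, UGT73C6 and AT5G55150 had none in their window, and neither did PR1. GRX480, AT4G16820 and TBL42 had 1 each. Over all called genes at least 4-fold higher with SA, 27.4% of 676 windows held TGACG on either strand, and 30.3% of the 304 at least 8-fold higher did. The share was 18.5% of the 524 called genes at least 4-fold lower and 19.4% of all 21261 tested genes with a window. TTGACC or TTGACT, the W box, was in 39.3% of the windows of genes at least 4-fold higher, 26.3% of those at least 4-fold lower and 28.9% of all tested genes. CACGTG, the G box, was in 6.21%, 6.3% and 7.33% of the same 3 sets. These shares describe letters in the windows and not binding.

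The genes of the EDS1 hub, which carries signals from intracellular immune receptors to SA, were nearly all higher, most of them by less than 2-fold. Of 12 genes of the hub, its helper receptors and N-hydroxypipecolic acid synthesis, 11 were called higher, 5 of them by at least 2-fold, and 0 were called lower; the median was 0.8. PAD4 (AT3G52430), a lipase-like partner of EDS1, had 49.2, 44.4 and 43.4 CPM in the SA libraries, against 21.4, 22.6 and 18.3 CPM in the control libraries. EDS1 itself rose by a log2 fold change of 0.36, and the helper receptor gene ADR1-L2 by 1.06. NDR1 (AT3G20600), needed by several membrane-bound immune receptors, averaged 8.91 ± 2.01 CPM with SA and 1.63 ± 0.212 CPM in controls (SD, n = 3 each). AT5G52810, annotated as a Rossmann-fold protein, averaged 84.6 ± 0.959 CPM with SA and 12.5 ± 1.68 CPM in controls. FMO1, which makes N-hydroxypipecolic acid, was the exception, at 4.24, 4.1 and 4.1 CPM with SA and 3.96, 5.9 and 4.64 CPM in controls, a log2 fold change of -0.22 ± 0.37 (SE).

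Receptors at the cell surface and in the cytosol were mostly higher by small amounts. Of 25 tested immune receptors and partners, 16 were called higher and 2 lower, 4 and 1 of these by at least 2-fold. EFR (AT5G20480), the receptor of bacterial elongation factor, averaged 11.9 ± 1.27 CPM with SA and 5.63 ± 0.495 CPM in controls, and RIN4 (AT3G25070), a protein guarded by immune receptors, averaged 77.3 ± 7.73 CPM with SA and 29.5 ± 2.38 CPM in controls (SD, n = 3 each). FLS2, the flagellin receptor, was near the limit of detection, at 0.0792, 0.222 and 0.239 CPM with SA and 0.406, 0.423 and 0 CPM in controls, and was called lower at a log2 fold change of -1.26. That call was lost with DESeq2 (adjusted p = 0.0738), with its size factors in edgeR (0.0501), with no filter (0.0509) and without SA replicate 1, control replicate 1 or control replicate 2 (adjusted p = 0.461, 0.148 and 0.128), which leaves 1 receptor gene lower; without SA replicate 1 the log2 fold change was -0.58. More of the cysteine-rich receptor-like kinase (CRK) genes passed 2-fold. Of 24 tested, 15 were called higher, 12 by at least 2-fold, and 4 were called lower. CRK36 (AT4G04490) had 7.88, 13 and 14.3 CPM in the SA libraries, against 0.60, 0.584 and 0.564 CPM in the control libraries, and CRK10 (AT4G23180) averaged 9.12 ± 0.425 CPM with SA and 1.25 ± 0.176 CPM in controls. The other 16 CRK genes of the list had too few counts to be tested.

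Nearly all listed genes that detoxify foreign compounds, other than glutathione transferases, were higher. These, without the glutathione transferases, are the detoxification genes of the passages below. Of 29 tested genes of glucosyltransferases, P450s, exporters and their NAC regulators, 28 were called higher, 18 of them by at least 2-fold, and 0 were called lower; the median was 1.69. UGT73B1 was not called, at 185, 153 and 149 CPM with SA and 142, 135 and 123 CPM in controls, a log2 fold change of 0.29. It was called higher with DESeq2 and with its size factors in edgeR (adjusted p = 0.0271 and 0.0295), with only the 6 libraries fitted (0.0131), and without SA replicate 2, SA replicate 3 or control replicate 1. ABCG40 (AT1G15520), a plasma membrane transporter, had 400.4, 372 and 403 CPM in the SA libraries, against 3.41, 4.5 and 3.95 CPM in the control libraries, a 99.9-fold rise (log2 fold change 6.64 ± 0.23 SE, edgeR adjusted p = 6.74e-28). CYP81D8 (AT4G37370), a P450 induced by many chemicals, had 648, 670.0 and 659 CPM in the SA libraries, against 18.6, 19.6 and 18.2 CPM in the control libraries. UGT74E2 (AT1G05680), which glucosylates an auxin precursor, had 2280.4, 2467 and 2512 CPM in the SA libraries, against 286, 304 and 250.1 CPM in the control libraries. Among regulators, ATAF2 (AT5G08790) averaged 1197 ± 43 CPM with SA and 233 ± 7.89 CPM in controls (SD, n = 3 each), and SCL14 (AT1G07530), a GRAS protein that works with TGA factors at such genes, rose by a log2 fold change of 0.40.

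The glutathione transferases were split. Of 39 tested tau and phi genes, 19 were called higher and 10 lower, 12 and 4 of these by at least 2-fold. GSTU11 (AT1G69930) rose most, to 195 ± 5.42 CPM with SA and 25.1 ± 0.634 CPM in controls. Members with high CPM also rose, CPM not being corrected for gene length: GSTU19 (AT1G78380) had 6456, 6819.6 and 7207 CPM in the SA libraries, against 2944, 3411 and 3238 CPM in the control libraries, GSTU25 averaged 3320.1 CPM with SA and 1009 CPM in controls, and GSTF8 averaged 4372 CPM with SA and 1914 CPM in controls. At the other end, GSTF11 (AT3G03190) had 0.832, 0.332 and 0.478 CPM in the SA libraries, against 9.38, 11.7 and 13.3 CPM in the control libraries, and GSTU14 fell by 3.01 on the log2 scale, or by 4.12 without SA replicate 1.

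The CC-type glutaredoxins, plant-specific thiol enzymes that bind TGA factors, were split too, with 6 of 18 tested called higher and 5 lower. GRX480 (AT1G28480), a known SA-induced member, had 248, 232 and 210.1 CPM in the SA libraries, against 25.7, 26.3 and 26.3 CPM in the control libraries, a log2 fold change of 3.14 ± 0.15 (edgeR adjusted p = 6.02e-23). GRXS13 (AT1G03850) averaged 77.4 ± 4.81 CPM with SA and 16.3 ± 2.19 CPM in controls. AT3G62930 went the other way, at 0.456, 0.222 and 0.239 CPM with SA and 5.18, 4.77 and 3.57 CPM in controls, a log2 fold change of -3.68 that became -4.27 without SA replicate 1.

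Genes of protein folding in the endoplasmic reticulum (ER) leaned slightly lower, and some were higher. Of 15, 9 were called lower, none by 2-fold, against 32.1% of all tested genes called lower. Another 4 were called higher, 2 of them by at least 2-fold. The chaperone genes BIP1 and BIP2 had log2 fold changes of -0.22 and -0.26, and CNX1 (calnexin) one of -0.49. Without SA replicate 1 only 5 of the 15 were called lower, so the lean of the list depended on that library. The calls of BIP1 and BIP2 were lost without it, and also without control replicate 2. BZIP60 (AT1G42990), a transcription factor of ER stress, had 223, 243 and 264 CPM in the SA libraries, against 62.6, 60.4 and 51.1 CPM in the control libraries. BIP3 (AT1G09080), the stress-induced chaperone, had 15.7, 52.1 and 62.5 CPM in the SA libraries, against 0.116, 2.18 and 0.125 CPM in the control libraries. Control replicate 2 was well above the other controls at BIP3, and all controls lay below the SA libraries. Its log2 fold change was 5.54 with all libraries, 8.47 without control replicate 2 and 4.74 without control replicate 1. Of 9 heat shock genes 6 were called higher and 0 lower, among them HSP90.1 (AT5G52640) at 45.9 ± 5.05 CPM with SA and 18.6 ± 3.15 CPM in controls (SD, n = 3 each).

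Jasmonate is the hormone often set against SA, and its genes were mixed. Of 25 tested, 6 were called higher and 9 lower, 2 and 4 of these by at least 2-fold, with a median of -0.19. MYC2 (AT1G32640), the central transcription factor of jasmonate responses, had 16.3, 14 and 12.3 CPM in the SA libraries, against 40.4, 40.9 and 36.1 CPM in the control libraries. Of the JAZ repressors, JAZ4 and JAZ3 fell by 1.27 and 0.68 on the log2 scale and JAZ12 rose by 0.46, whereas JAZ1 was not called (0.13). The jasmonate-inactivating P450 genes CYP94B1 and CYP94B3 went opposite ways, at log2 fold changes of -1.35 and 1.81.

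Many genes for indole glucosinolates, sulfur-rich defence compounds made from tryptophan, fell, while some of that pathway and some camalexin genes rose. Of the 24 genes of both pathways, 12 were called lower, 8 by at least 2-fold, and 5 higher. MYB34 (AT5G60890), a regulator of indole glucosinolate synthesis in roots, had 12.6, 7.09 and 7.72 CPM in the SA libraries, against 65.9, 57.4 and 69.8 CPM in the control libraries, a log2 fold change of -2.72 ± 0.17 (edgeR adjusted p = 3.26e-18). Enzyme genes were lower too: CYP79B3 (AT2G22330) averaged 27.9 ± 8.5 CPM with SA and 118 ± 10.7 CPM in controls, and CYP83B1 (AT4G31500) averaged 30.6 ± 11.3 CPM with SA and 158 ± 8.11 CPM in controls (SD, n = 3 each). MYB51, the related regulator better known from shoots, rose by 1.28. The P450 gene CYP81F1 of the same list was above its controls at the neighbouring times. It had 48.5, 52.8 and 51.7 CPM with SA at 1 h, against 30.1, 26.2 and 19.6 CPM in controls. At 4 h it had 180, 184 and 174 CPM with SA, against 22.9, 20.1 and 19.5 CPM in controls. PAD3 (AT3G26830), which makes camalexin, had 85.9, 107 and 141 CPM in the SA libraries, against 22.3, 25.1 and 28.2 CPM in the control libraries.

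Genes of primary auxin response leaned higher, and those of auxin transport and perception mostly did not. Of 34 tested Aux/IAA, GH3 and LBD genes, 17 were called higher and 7 lower, 8 and 4 of these by at least 2-fold, with a median of 0.22. GH3.3 (AT2G23170), whose enzyme joins auxin to amino acids, had 510.5, 535 and 534 CPM in the SA libraries, against 37.8, 44.6 and 46.3 CPM in the control libraries. IAA13 (AT2G33310) and IAA19 (AT3G15540), both repressors induced by auxin or its signalling, had log2 fold changes of 2.07 and 1.76. GH3.17 fell by 1.72 and LBD29, which acts in lateral root formation, by 2.32 on the log2 scale. Of the 13 carriers and receptors, 2 were called higher and 5 lower. AUX1 (AT2G38120), the main auxin influx carrier of the root tip and root hair cells, had 32.2, 27.2 and 27.5 CPM in the SA libraries, against 88.3, 101 and 93 CPM in the control libraries. PIN2 and TIR1 were not called, at -0.12 ± 0.084 and 0.09 ± 0.076 (log2 fold change, SE).

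Of 10 type-A response regulators, which report cytokinin signalling and dampen it, 5 were called lower and 0 higher. ARR9 (AT3G57040) averaged 17.5 ± 1.75 CPM with SA and 43.9 ± 4.0 CPM in controls, and ARR5, ARR6 and ARR8 fell by 0.80, 0.42 and 0.65 on the log2 scale, ARR6 without a call when SA replicate 1 or control replicate 1 was left out. ABA response genes showed no common shift. Of 10, 5 were called higher and 1 lower (2 lower with DESeq2 or with only the 6 libraries fitted). HAI1 (AT5G59220), a phosphatase gene of the ABA pathway, rose to 21.9 ± 5.37 CPM with SA and 2.81 ± 0.114 CPM in controls (SD, n = 3 each), and LTI78 was the gene called lower, at a log2 fold change of -0.71. RAB18 and LTI65, strong markers of ABA, were not called, at 0.416, 0.332 and 0.438 CPM with SA and 0.261, 0.35 and 0.125 CPM in controls for RAB18 and 0.594, 1.11 and 0.717 CPM with SA and 0.716, 0.277 and 0.564 CPM in controls for LTI65.

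Root hair genes fell nearly as a block. Of 17, 14 were called lower, 13 of them by at least 2-fold, and 2 higher, with a median of -1.65, against 32.1% of all tested genes called lower. RHD6 (AT1G66470), a bHLH factor that starts root hairs, had 3.09, 3.66 and 4.34 CPM in the SA libraries, against 23.7, 23.6 and 23.9 CPM in the control libraries. RSL4 (AT1G27740), its target that sets hair length, had 1.82, 1.77 and 1.23 CPM in the SA libraries, against 9.96, 13.4 and 10.4 CPM in the control libraries, a log2 fold change of -2.80 ± 0.18 (edgeR adjusted p = 7.18e-18). The SA and control libraries did not overlap at either gene. Wall proteins made in growing hairs were lower with them: PRP3 (AT3G62680) averaged 27.7 ± 11.5 CPM with SA and 100.2 ± 10.1 CPM in controls, COBL9 (AT5G49270) averaged 4.74 ± 0.716 CPM with SA and 21.9 ± 2.74 CPM in controls, and EXPA7 fell by 1.54 on the log2 scale. The 2 that rose were CPC (AT2G46410), a mobile regulator of hair cell fate, and RHD2 (AT5G51060), the NADPH oxidase of hair tips, at 253, 295 and 289 CPM with SA and 78.8, 95.5 and 77.7 CPM in controls. GL2, which marks non-hair cells, was not called (0.10 ± 0.11, log2 fold change and SE). In bulk root RNA, fewer hair cells and less of these RNAs per hair cell cannot be told apart.

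Of the 12 root markers, 7 were called lower, 3 of them by at least 2-fold, and 0 higher, with a median of -0.53. COBL9 and BGLU23, given above, were among the 7, as were WER of the epidermis and SHR of the stele, at log2 fold changes of -0.56 and -0.52. The 5 not called, SCR (endodermis and quiescent centre), PLT1 and PLT2 (stem cell niche), PIN2 (an auxin carrier) and APL (phloem), had log2 fold changes between -0.12 and 0.17. APL was called higher without SA replicate 2 or without control replicate 3 (adjusted p = 0.0495 and 0.0369). CASP1 of the endodermis fell by 0.55. The nutrient transporter genes PHT1;1 (phosphate) and NRT2.1 (nitrate) fell by 1.09 and 1.82 on the log2 scale, the second to 8.87 ± 2.75 CPM with SA and 31.7 ± 3.56 CPM in controls (SD, n = 3 each).

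Cell division genes fell moderately. Of 17 core cell cycle genes, 12 were called lower, 4 by at least 2-fold, and 1 was called higher. The cyclins of late stages of the cycle were among them: CYCA1;1 (AT1G44110) had 4.1, 3.54 and 2.63 CPM in the SA libraries, against 12.2, 13.4 and 14 CPM in the control libraries, and CYCB1;1 and CYCB1;4 fell by 1.38 and 1.25 on the log2 scale. Among inhibitors of cyclin-dependent kinases, SIM fell by 1.55, and SMR4 (AT5G02220) was the 1 gene called higher, at 5.78, 8.64 and 9.04 CPM with SA and 3.76, 3.46 and 3.57 CPM in controls. Clock genes were split, with 5 of 12 called higher and 4 lower, and PRR9 (1.19) alone past 2-fold. Without SA replicate 3, or without control replicate 1, 2 clock genes were called lower.

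Iron uptake genes showed no common direction. Of 27 genes of the iron deficiency response, 6 were called higher and 9 lower. FRO2 (AT1G01580), the reductase of the root surface, had 4.81, 11.2 and 5.1 CPM in the SA libraries, against 44.7, 38.2 and 33 CPM in the control libraries. IRT1, the iron transporter that works with it, was not called (-0.31 ± 0.28, log2 fold change and SE), nor was FIT, the regulator of both (0.03). NAS1, a nicotianamine synthase, fell by 2.53, and BTS (AT3G18290), a ubiquitin ligase that restrains iron uptake, averaged 358 ± 15.6 CPM with SA and 135 ± 7.89 CPM in controls (SD, n = 3 each).

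Of 5 pathogenesis-related and other late SA genes, 2 were called higher, and the classic markers were at or near 0 counts. PR1 (AT2G14610) had 1 count in each SA library and 0 counts in each control library, and BGL2 and PR5 had 0 counts in all 6. At the depth of the SA libraries, a count of 0 allows up to 0.0594, 0.332 and 0.119 CPM, counting error only. LURP1 (AT2G14560), another late defence gene, had 61, 21 and 57 counts with SA and 0, 1 and 1 in controls, a rise of at least 22.3-fold. PCR1 (AT1G14880), a cadmium resistance protein, had 168, 69 and 239 counts with SA and 1, 0 and 0 in controls, a rise of at least 78.5-fold.

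**Figure D3:**
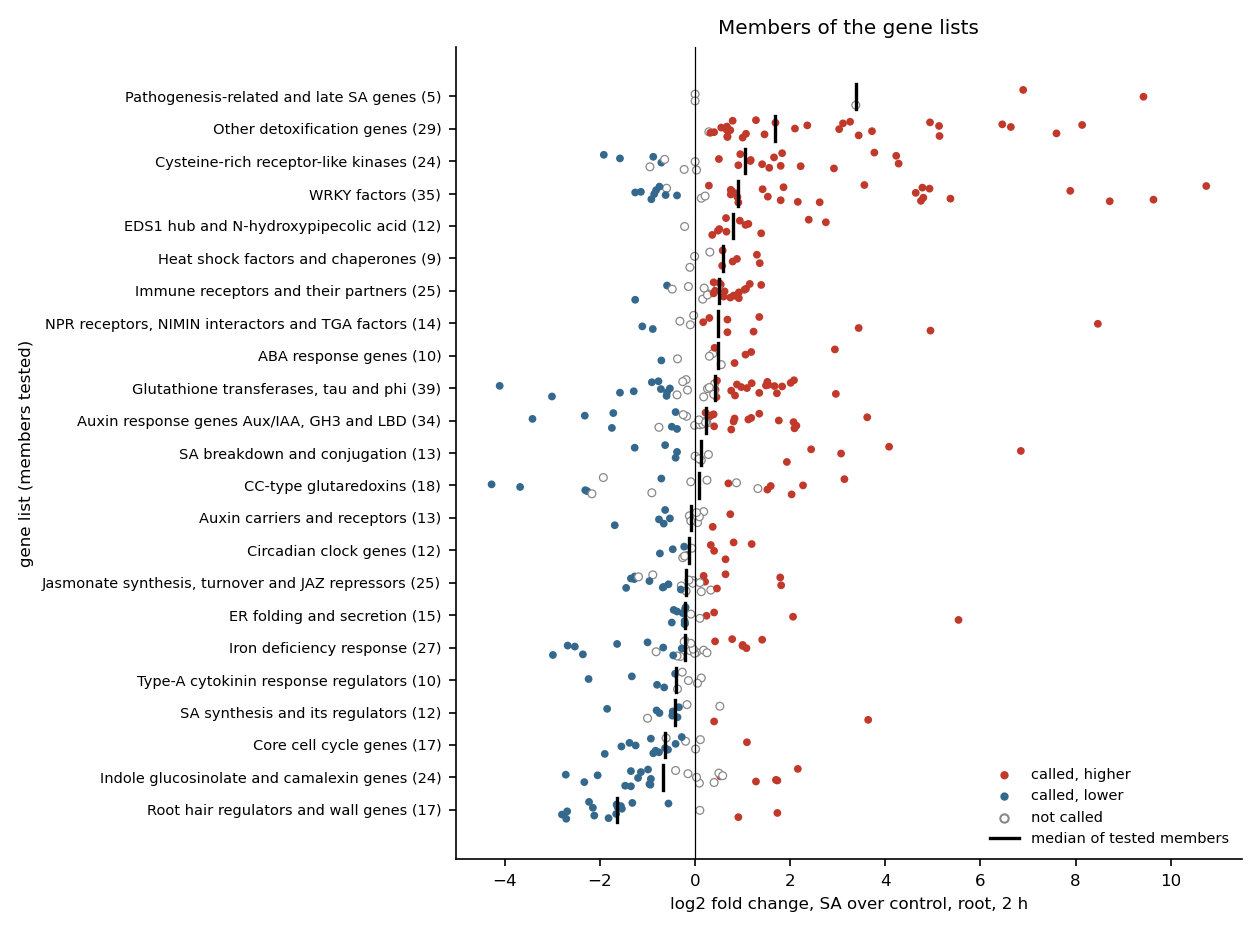
Log2 fold change of SA over control for each tested member of the gene lists, ordered by the median (black bar), with called members higher with SA in red, called members lower with SA in blue and members not called open. Fitted values of genes with 3 counts or fewer in every control library are no bound. Detoxification genes lie almost wholly right of 0 and root hair genes almost wholly left of it, while glutathione transferases and glutaredoxins spread to both sides.

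Ranked by control CPM, which is not corrected for gene length, the highest genes that rose by at least 2-fold were GSTU19, GSTF8 and UBQ3 (AT5G03240), a polyubiquitin gene at 3565, 3709.9 and 3818 CPM with SA and 1531, 1317 and 1215 CPM in controls. The highest that fell by at least 2-fold were SAHH2 (AT3G23810), an enzyme of the methyl cycle at 366, 326 and 295 CPM with SA and 741, 807 and 675 CPM in controls, NAI2 (AT3G15950), a protein of ER bodies at 330.1 CPM with SA and 704 CPM in controls, and the peroxidase AT3G32980 at 261 CPM with SA and 562 CPM in controls. The largest falls among genes of at least 5 CPM were smaller than the largest rises. They were led by AT5G10210 (log2 fold change -5.07), AT2G48080 (-4.45, an oxygenase) and AT4G25250 (-4.40, an inhibitor of invertase or pectin methylesterase). Next came GSTF11, AT5G01740 and AT5G19970, then XTH13 (AT5G57540, a xyloglucan-modifying wall enzyme, -3.95), UCC3 (AT3G60280, uclacyanin), AT2G36090, AT5G55050, AT3G07070 and TPPB (AT1G78090, a trehalose-6-phosphate phosphatase, -3.55). AT2G48080 had 2.34, 1.22 and 2.27 CPM in the SA libraries, against 43.3, 44.2 and 55.5 CPM in the control libraries, and TPPB had 4.06, 2.66 and 3.26 CPM in the SA libraries, against 43.2, 41.9 and 40 CPM in the control libraries. In both, all 3 SA libraries lay far below every control. Without SA replicate 1 the log2 fold changes of XTH13, UCC3, AT5G19970 and AT3G07070 became -5.83, -4.69, -4.63 and -4.29, against -3.95, -3.90, -3.98 and -3.59 with all libraries.

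The order of events was followed by setting the SA effect at 2 h against that at 1 h and at 4 h, each with its own controls. NIMIN1 was far above its controls by 1 h: it averaged 86.1 ± 26.1, 128 ± 6.6 and 96.1 ± 4.71 CPM with SA at 1 h, 2 h and 4 h, and 0.417 ± 0.0198, 0.357 ± 0.0436 and 0.294 ± 0.0293 CPM in controls (SD, n = 3 each). It was higher again later, at 178 ± 8.55 CPM with SA at 7 h and 165 ± 4.59 CPM at 24 h. WRKY70 varied less with SA from 1 h on, at 343 ± 39.1, 363 ± 1.06 and 329 ± 10.5 CPM at 1 h, 2 h and 4 h. DLO1 was still climbing, at 35.6 ± 10.9, 115 ± 16.3 and 223 ± 7.05 CPM with SA at the same times and 647 ± 28.8 CPM at 48 h. GRX480 was highest at 2 h, with 229.9 ± 19 CPM against 80.5 ± 12.4 CPM at 4 h, both with SA. In untreated roots GRX480 had 4.75 ± 0.839 CPM before transfer (n = 4), 25.3 ± 2.94 CPM in controls at 1 h and 26.1 ± 0.345 CPM in controls at 2 h, differences that were not tested. The libraries before transfer and the controls at 1 h had the same library-name prefix. PR1 reached 1.52 ± 0.297 CPM with SA at 4 h and 108 ± 16.3 CPM at 24 h.

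**Figure D4:**
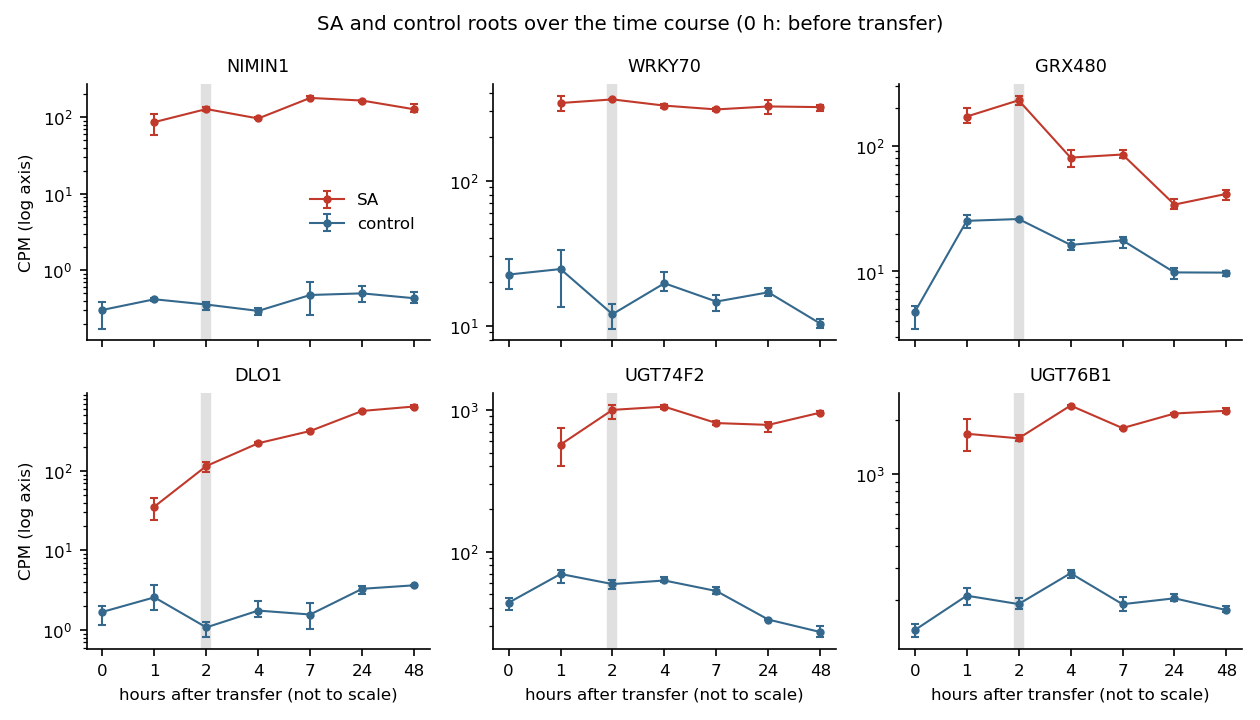
Mean CPM (log axis) of NIMIN1, WRKY70, GRX480, DLO1, UGT74F2 and UGT76B1 in SA roots (red) and control roots (blue) from 0 to 48 h, with bars from the lowest to the highest library and a grey band at 2 h. The SA and control curves are apart from 1 h on, DLO1 keeps rising in SA roots, and GRX480 declines in SA roots after 2 h.

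The SA effect differed between 2 h and 1 h at 4748 genes (22.2% of 21367, edgeR interaction, adjusted p under 0.05), with 2437 (11.4%) more positive at 2 h and 2311 (10.8%) more negative. It differed between 4 h and 2 h at 5970 (27.9%), with 3081 (14.4%) more positive at 4 h and 2889 (13.5%) more negative. At 4 h the shoot markers summed to 27.7, 31.9 and 253 CPM in the SA root libraries, replicate 3 being the high one. In the control root libraries at 4 h they summed to 74.7, 61.5 and 68.5 CPM. The part of SA replicate 3 at 4 h in these differences was not tested. The 1 h libraries carried another library-name prefix than those at 2 h and 4 h, in SA and control alike. Root hair genes changed between 1 h and 2 h. The effect was more negative at 2 h for 14 of the 17, and their median log2 fold change was -0.54 at 1 h, -1.65 at 2 h and -1.67 at 4 h. Of the cell cycle genes 8 of 17 were more negative at 2 h than at 1 h and 8 were more negative at 4 h than at 2 h, with medians of -0.22, -0.63 and -0.87. WRKY genes went the other way, with 17 of 35 more positive at 2 h than at 1 h and 4 more negative.

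Some other groups turned after 2 h. For detoxification genes, 11 of 29 were more positive at 2 h than at 1 h, and 14 were then less positive at 4 h than at 2 h and 0 more so, with medians of 1.17, 1.69 and 1.22. For auxin response genes, 13 of 34 were more negative at 4 h than at 2 h; IAA19, for example, had log2 fold changes of 1.40, 1.76 and 0.35 at 1 h, 2 h and 4 h. The ER folding genes went from leaning lower to leaning higher after 2 h, with medians of -0.25, -0.21 and 0.31. Of the 15, 4 were more positive at 2 h than at 1 h and 0 more negative. Then 8 were more positive at 4 h than at 2 h and 0 more negative. Called higher and lower were 2 and 11 members at 1 h, 4 and 9 at 2 h, and 9 and 2 at 4 h. Over all 21367 tested genes, the counts higher and lower were 4850 and 4813 at 1 h and 6585 and 6587 at 4 h. RHD6 was lower at 1 h (-2.05) and 2 h (-2.71) and higher at 4 h (0.43, edgeR adjusted p = 0.0049), while RSL4 was lower at all 3 times, at -1.64, -2.80 and -1.50.

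The genes with the smallest p of these interactions show both patterns. AT3G02770, an RraA-like protein, AT4G18630 and AT4G17260, a lactate or malate dehydrogenase, had become more positive between 1 h and 2 h. AT4G17260 had log2 fold changes of 0.36 at 1 h and 2.56 at 2 h. AT5G26290, IQD19 (AT4G14750, a calmodulin-binding protein) and AT2G47540 had become more negative, IQD19 with -1.58 at 1 h and -3.13 at 2 h. In the later interval, EXPA11 (AT1G20190, an expansin), ZF1 (AT5G67450, a zinc-finger protein) and UGT72E2 (AT5G66690, which glucosylates lignin precursors) were lower at 2 h and had become more positive. EXPA11 had -2.81 at 2 h and 0.53 at 4 h (difference 3.34 ± 0.19 SE). The wall genes XTH4 and GATL6 and the lipid-binding protein gene ORP3B were higher at 2 h and had log2 fold changes of -0.80, -0.13 and -0.37 at 4 h.

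**Figure D5:**
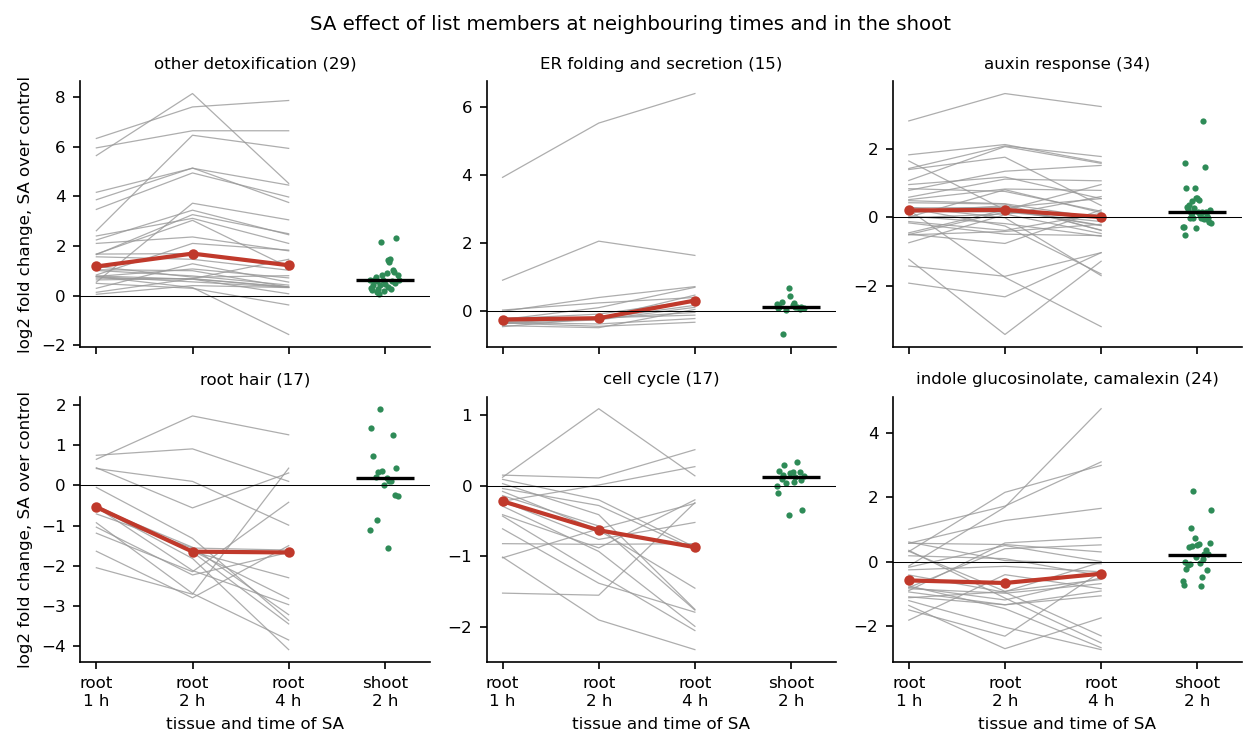
Log2 fold change of SA over control for tested members of 6 lists (other detoxification, ER folding, auxin response, root hair, cell cycle, and indole glucosinolate and camalexin genes; grey lines, 1 per gene) in roots at 1 h, 2 h and 4 h, with the list's median in red, and in shoots at 2 h (green points, black bar at the median). Detoxification genes peak at 2 h, root hair and cell cycle genes fall between 1 h and 2 h, and the shoot medians of all 6 lists lie nearer 0 than the root medians at 2 h.

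The SA effect at 2 h was also set against that in the shoots of seedlings treated in the same way. It differed between root and shoot at 7263 of 22322 genes (32.5%) in a fit of both tissues, with 3088 (13.8%) more positive in root and 4175 (18.7%) more negative. The SA shoots at 2 h had another library-name prefix than the control shoots at 2 h, so a batch and the SA effect in shoots cannot be told apart, and the values that follow share this limit. Of 29 detoxification genes, 17 were more positive in root and 0 more negative; ABCG40 had a log2 fold change of 6.64 in root and 1.43 in shoot, and CYP81D8 5.13 in root and 1.35 in shoot. Of cell cycle genes 13 of 17, of indole glucosinolate and camalexin genes 12 of 24 and of root hair genes 11 of 17 were more negative in root. WRKY38 was strongly higher in both tissues, at 7.89 in root and 7.16 in shoot (difference 0.72 ± 0.84 SE, edgeR adjusted p = 0.55).

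The smallest p in this contrast belonged, on the positive side, to AT2G30550 (an alpha/beta-hydrolase), ABCG21 (AT3G25620, a transporter) and NFXL1 (AT1G10170, a zinc-finger regulator). NFXL1 had a log2 fold change of 3.26 in root and 0.21 in shoot, with 78.7, 73.4 and 65.5 CPM in SA shoots and 67.6, 60 and 60 CPM in control shoots. On the negative side were IQD19, GH9B1 (AT1G70710, a wall glucanase) and ZF1, which had log2 fold changes of -3.13, -1.96 and -3.04 in root and -0.15, 0.27 and 1.09 in shoot.

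SA roots were also tested directly against ABA roots of the same time, without the controls. Of 21367 genes 14041 (65.7%) differed, 6743 (31.6%) higher with SA and 7298 (34.2%) lower with SA. The EDS1 hub genes were higher with SA at 12 of 12, WRKY genes at 26 of 35 and detoxification genes at 24 of 29, while ABA response genes were lower with SA at 8 of 10, heat shock genes at 8 of 9 and root hair genes at 13 of 17. This direct test does not tell which agent moved a gene. Against the controls, ABA roots had 5632 of the 21367 tested genes called higher and 5603 lower. The lists are read against these counts. Of the EDS1 hub genes, 0 were called higher with ABA and 9 lower. The counts higher and lower with ABA were 10 and 14 for WRKY genes and 8 and 15 for detoxification genes. They were 8 and 2 for ABA response genes, 9 and 0 for heat shock genes, and 9 and 4 for root hair genes. WRKY54, WRKY38 and ARD3 had the smallest p among genes higher with SA. WRKY54 had 201, 179 and 165 CPM with SA and 1.03, 0.821 and 1.03 CPM with ABA. COR413-PM1 (AT2G15970, a cold-regulated membrane protein), LEA4-5 (AT5G06760, a late embryogenesis abundant protein) and AT5G17460 had the smallest p among genes lower with SA than with ABA. COR413-PM1 had 80.3, 74.9 and 68.5 CPM with SA and 4026, 3253 and 2671 CPM with ABA. DLO1 in ABA roots lay above its level in controls: it had 98.1, 117 and 131 CPM with SA and 16.8, 9.44 and 8.67 CPM with ABA. The heat shock genes HSP70 and HSFB2A were lower with SA than with ABA, at log2 differences (SA minus ABA) of -1.68 and -1.11.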

How the data were processed

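RNA of root and shoot was sequenced as stranded poly(A) libraries in paired reads of 150 bp, per the labels' protocols. The deposited values are raw read counts per gene, which the authors made with HISAT2, featureCounts and the TAIR10 genome, per the submitters' processing notes (gene IDs carry the suffix Araport11); versions and the strand setting are not given in the sources used here. The table held 27655 genes and 116 libraries, with 0 columns unused, and totals of the 6 libraries compared ran from 9681595 to 96952547 counts. Groups came from the labels, which call the libraries biological replicates; each is a pool of seedlings, so p-values measure the spread between pools.

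The 58 root libraries in 19 groups were fitted together with edgeR 4.0.16 in R 4.3.3 (filterByExpr, TMM, quasi-likelihood F-test), and adjusted p-values (Benjamini-Hochberg, over all 21367 tested genes) under 0.05 were called. Root and shoot were compared in a fit of all 116 libraries in 38 groups over 22322 genes. The method was also run on simulated data in which few genes changed, unlike here. That run does not give its error rate in these data. Counts of 0 were bounded at 3 counts per library; this covers counting error only.

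Symbols came from RefSeq's TAIR10.1 table, which matched 27445 of the 27655 gene IDs. Its assembly was used for upstream sequence and, with BLAST 2.17.0, for near copies. Named genes were up to 5 called members of largest change in each of 25 lists, with opposite, uncalled or role-ordering members; the 12 largest changes each way among called genes of at least 5 CPM whose groups did not overlap; the 3 smallest p each way in each further contrast; the 3 called genes of highest control CPM each way that changed by at least 2-fold; and 7 SA genes over time. Members and lists were chosen with earlier results of these data known. Alternatives were DESeq2 1.42.0, its size factors in edgeR, no filter, only the libraries compared, a replicate block, each replicate left out, and a test against a 2-fold change.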

Additional observations from a re-analysis of the deposited data

Results flagged for a closer look

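The values here were singled out because the SA effect differed between times or between tissues by an edgeR interaction test (adjusted p under 0.05), as log2 differences of the SA effect. Between 2 h and 1 h in root, 4748 genes differed. AT3G02770 (1.17), AT4G18630 (2.55) and AT4G17260 (2.19) were more positive at 2 h, and AT5G26290 (-1.52), IQD19 (-1.56) and AT2G47540 (-1.91) were more negative. The prefix of the library names changed between 1 h and 2 h, for SA and control alike, and its part in these differences was not tested.

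Between 4 h and 2 h in root, 5970 genes differed, within the same prefix. SA replicate 3 at 4 h had 253 CPM of shoot markers, and its part in these differences was not tested. EXPA11 (3.34), ZF1 (3.41) and UGT72E2 (3.57) were more positive at 4 h, and ORP3B (-1.34), XTH4 (-1.6) and GATL6 (-1.36) were more negative.

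Between root and shoot at 2 h, 7263 genes differed. AT2G30550 (3.19), ABCG21 (5.96) and NFXL1 (3.06) were more positive in root, and IQD19 (-2.98), GH9B1 (-2.22) and ZF1 (-4.11) were more negative. SA and control shoots had different prefixes, so the SA effect in shoots and the prefix cannot be told apart.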

How the results depend on the processing

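Of 67 recomputed counts over all genes, 66 stayed within 1.5 times. The exception was the test against a 2-fold change, which by construction is stricter and called 2185 genes, 1206 higher and 979 lower, against 3816 called and at least 2-fold. The 13141 called genes became 12996 with DESeq2, 13171 with its size factors, 13052 with no filter and 12624 with only the 6 libraries, and ran from 11793 to 12536 with 1 replicate left out. Higher genes were 47.8% of those called, and 51.0% with DESeq2 size factors, so which direction held more genes depended on the scaling. The labels do not say whether equal replicate numbers mark libraries handled together. The deviations of same-numbered SA and control libraries correlated at -0.0902, -0.124 and 0.107 over 15404 genes. SA replicate 1 correlated best with control replicate 2 (0.244). Deviations from a mean of 3 libraries depend on each other, so these values do not settle the pairing. With the number as a replicate block, 13126 genes were called; among the named genes the calls of TGA3 (adjusted p = 0.0857) and FLS2 (0.106) were lost and UGT73B1 was called (0.0248).

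With 1 replicate left out, the genes called and at least 2-fold ran from 3578 to 4063, the 2 h and 1 h difference from 3264 to 5505, the 4 h and 2 h difference from 5067 to 5757, the root and shoot difference from 6093 to 6987, and SA against ABA from 12811 to 13869. Of the recomputed values of named genes, 2170 kept direction and side of the threshold, 29 lost a call, 10 gained one and 9 changed sign. The sign changes were all at genes not called: with 1 replicate left out, TGA2 ran from -0.09 to 0.07, FMO1 from -0.37 to 0.01, FIT from -0.07 to 0.09, SCR from -0.1 to 0.05, PLT2 from -0.04 to 0.09 and LEA4-5 from -0.16 to 0.42 (log2 fold change). Depth limits genes with few control counts, whose fold changes have wide errors.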
